A study of Xenopus tropicalis with 26 samples.

Results

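Embryos of the western clawed frog, Xenopus tropicalis, at tailbud were set against those of cleavage and blastula to measure the net change from the maternal RNA store to the transcriptome of a body with formed organ rudiments. The comparison used 6 of the 26 samples of the series: the 2 libraries of stage 28, 1 from each of 2 families, against the 4 libraries of stages 6 and 8 of the same families, taken as one group. All were embryo pools with no treatment named, and libraries were made by whole transcriptome target sequencing (WTTS), which fragments RNA and keeps the pieces that carry a poly(A) tail. The sources used here do not state the number of embryos in a pool or the parents' strain, and 2 families do not stand for the species.

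The frog egg is loaded during oogenesis with messenger RNA that runs the first divisions while the embryo's own genome is largely silent. Around the mid-blastula transition the zygotic genome is switched on, and maternal messages are cleared in waves by deadenylation and decay. By tailbud the embryo has a neural tube, somites, a heart rudiment and an epidermis, each with messages of its own. Maternal store and zygotic products can replace one another for the same gene, so a level that is the same at both ends can hide a dip or a peak in between.

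Counts were available for 27836 features, each a transcribed locus with an identifier, a scaffold, a start, an end and a strand. No identifier matched the reference gene table (0 of 27836), so features are given by identifier and position as the table has them, and no gene name, function or marker list could be read. The sources used here name neither the genome build nor whether positions count from 0 or from 1. The labels of the embryos could therefore not be checked against markers. The 4 early libraries held 1536128 to 6276132 counts and the tailbud libraries 6272890 (family 1) and 2549479 (family 2). Of the features, 5359 had no count in these 6 libraries, 8755 had too few to be tested, and 13722 were tested. Levels are relative to a library and given as normalised CPM, which are counts relative to the scaled library size. They therefore differ from shares of the raw counts, which are given in percent. WTTS levels are those of RNA with a poly(A) tail, and a change of tail was not told apart from a change of amount. In whole embryos, fewer cells of a type and less RNA per cell cannot be told apart, and RNA per embryo was not measured. Libraries of the same end were alike across features, with Spearman correlations of 0.941 to 0.961 among the 4 early libraries and 0.944 between the tailbud libraries, against 0.645 to 0.664 between the ends.

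Most of the tested features changed in WTTS level between the ends. Of the 13722 features, 4705 were higher at tailbud (34.3%) and 4243 lower (30.9%), together 65.2% of those tested (edgeR quasi-likelihood test with family as a block, adjusted p below 0.05). Rising features rose by a median log2 of 2.55 and falling features fell by a median of 1.69 on the log2 scale. By a log2 of at least 4, 1242 features rose and 298 fell. Most of these rises were of features under 1 CPM before gastrulation, which could pass the filter on low counts only with the help of their tailbud counts, so the counts are a description. With at least 1 CPM at the lower end, 445 rose and 138 fell by a log2 of at least 4. Tested against a change of at least 1 on the log2 scale, 3403 features were higher (24.8%) and 2393 lower (17.4%). The median log2 of all tested features was 0.03, and 0.10 with DESeq2 size factors. Both scalings centre the features near no change, so these medians do not test a balance of rises and falls. The numbers of rising and falling features rest on that scaling.

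Values of the 2 groups did not overlap for 4550 of the 4705 rising features and 4058 of the 4243 falling features, while 70.2% of all tested features did not overlap in one direction or the other. Calculated within each family alone, the change had the same sign in both families for 8936 of the 8948 called features, against 87.7% of all tested features. Among rising features, 3734 rose by a log2 of at least 1 in each family, and among falling features 2984 fell by as much in each. The same 6 libraries made the calls, so these counts describe the calls and do not add to them.

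**Figure D1:**
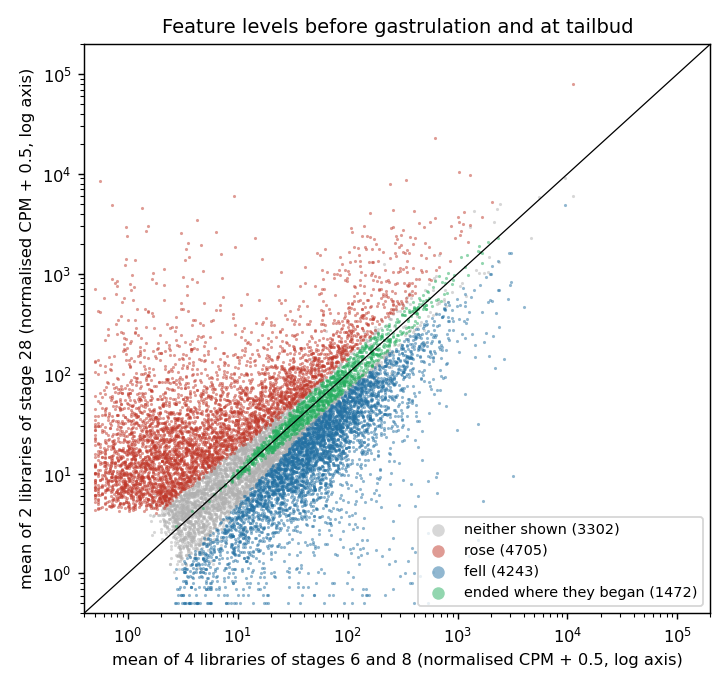
Each point is one of the 13722 tested features, with its mean normalised CPM + 0.5 over the 4 libraries of stages 6 and 8 on the x axis and over the 2 libraries of stage 28 on the y axis, both log axes. Rising features (4705) spread far above the diagonal and falling features (4243) lie closer to it, while features that ended where they began and were not called (1472) lie along it at middle and high levels.

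The make-up of the libraries turned over with the features. Falling features held 56.5% and 52.2% of all counts at stage 6 in families 1 and 2 and 52.1% and 52.0% at stage 8, against 11.6% and 15.0% at stage 28. Rising features held 13.9% and 15.2% of counts at stage 6 and 15.7% and 15.0% at stage 8, against 64.3% and 59.9% at stage 28. No early library overlapped a tailbud library in either share. The features were chosen by their change in these libraries, so the shares give the size of the turnover and are not a test of it. In between, in libraries that did not choose the features, rising features held 39.5% and 30.5% at stage 11 and 53.3% and 55.5% at stage 15, and falling features 27.9% and 26.9%, then 16.9% and 16.7%. A single rising feature, XLOC_016359, took 17.6% and 2.91% of the counts at stage 11 and 17.5% and 16.98% at stage 15. With its counts left out, rising features held 13.6 to 14.3% in the 4 early libraries, 26.5% and 28.4% at stage 11, 43.4% and 46.3% at stage 15, and 60.7% and 58.7% at stage 28.

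**Figure D2:**
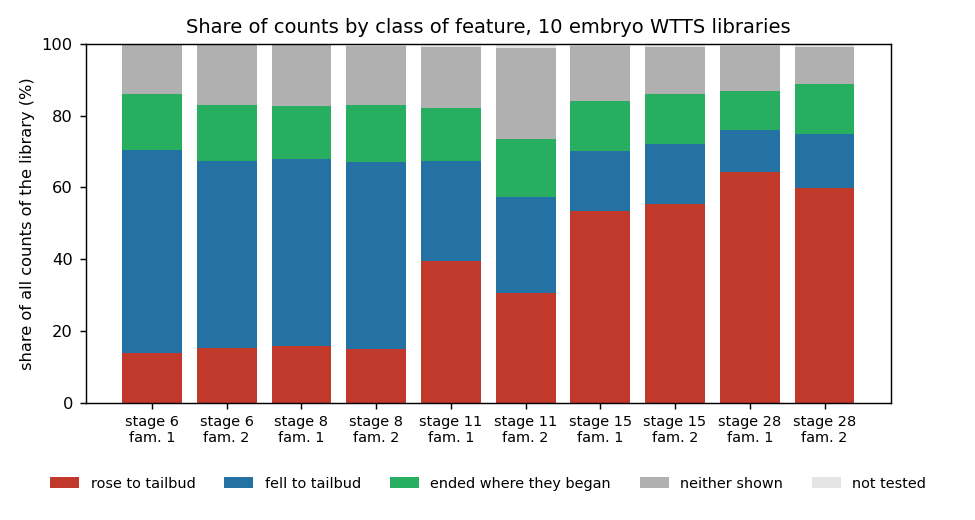
Bars show, for each of the 10 embryo WTTS libraries, the share of its counts in features that rose, fell, ended where they began, showed neither, or were not tested; stages and families are on the x axis. The share in rising features is 13.9 to 15.7% in the 4 early libraries and 59.9 to 64.3% in the 2 tailbud libraries.

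The most abundant features at each end can be followed to the other. Of the 100 features with the highest early mean, 56 fell, 14 rose and 12 ended where they began, while 18 showed neither. The 56 that fell had a median of 1629 CPM before gastrulation and 416 CPM at tailbud. Of the 100 highest at tailbud, 81 rose, 3 fell and 6 ended where they began, and the 81 had medians of 260.2 CPM early and 2408 CPM at tailbud. The lists shared 32 features, which is 32% of each. Choosing by the level at one end favours falls in the early list and rises in the tailbud list, so these counts describe the lists alone. Of all 2021 features at 100 CPM or more early, 57.8% fell. Among all 13722 tested features, 34.3% rose and 30.9% fell.

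The direction of change went with the early level. Of 2021 features at 100 CPM or more before gastrulation, 57.8% fell and 14.3% rose, and of 6358 at 10 to 100 CPM 42.2% fell and 19.3% rose. Among 4279 features at 1 to 10 CPM 9.11% fell and 49.7% rose. All 1064 tested features under 1 CPM rose; none of them could pass the filter on low counts by early counts alone, so they had to be high at tailbud. The early level is part of the change, so these shares describe the table and have no test.

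Some features had counts at one end alone. Among the tested features 46 had no count in any of the 4 early libraries, which hold 14573327 counts in all, and all were called higher, as they had passed the filter on low counts through tailbud alone, so that their calls say nothing further and no p is given. Pooled over the early libraries, 3 counts are 0.195 CPM. A further reading came from the deeper RNA-seq libraries of the same families at stages 6 and 8: 8 of the 46 had no read there either, and 2 reached a mean of 1 CPM. The median of the 46 in RNA-seq was 0.0214 CPM, against 25.2 CPM for all tested features.

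XLOC_006650 had the highest tailbud level of these features, and lies on scaffold_2 from 100701465 to 100705108, plus strand. It had 0 counts in the 4 early libraries, 70.6 and 67.6 CPM at stage 11 in families 1 and 2, 229 and 278 CPM at stage 15, and 787 and 621 CPM at stage 28. The families were close to each other at each later stage. The mean tailbud level was at least 3617-fold higher than the early floor of 3 counts over the 4 libraries. RNA-seq found it before gastrulation too, with 8, 13, 16 and 11 reads in the 4 libraries of stages 6 and 8, a mean of 0.0989 CPM, against 80.3 CPM at stage 11.

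XLOC_011437, on scaffold_31 from 780293 to 791625, minus strand, was lower at stage 11. It had 0 counts in the 4 early libraries, 1.69 and 6.35 CPM at stage 11, 48.8 and 70.7 CPM at stage 15, and 137 and 130 CPM at stage 28. The mean tailbud level was at least 684-fold higher than the floor, and both families were higher at each step after the blastula. In RNA-seq it had 40, 35, 37 and 27 reads in the libraries of stages 6 and 8, a mean of 0.287 CPM, and 5.67 CPM at stage 11. In the adult female it was low, at 0.263 and 0.224 CPM in 2 technical repeats of WTTS. The RNA-seq library of the mixed adult pool held 23.6 CPM. Animals and method both differ between these values and cannot be told apart, and the WTTS libraries of the pool were not used here.

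At the other end, 44 falling features had no count in either tailbud library, which hold 8822369 counts in all, so that 3 counts are 0.428 CPM. The same filter lets these through by their early counts alone. XLOC_027131, on scaffold_9 from 49355288 to 49357946, minus strand, had the highest early level among them. The families held 799 and 414 CPM at stage 6 and 563 and 394 CPM at stage 8. It then held 48.0 and 17.3 CPM at stage 11, 1.68 and 1.78 CPM at stage 15, where each library had 3 counts, and 0 at stage 28. The tailbud level was at least 1268-fold lower than the early mean, against the floor of 3 counts over both libraries, and family 1 was above family 2 until the gastrula. In the adult female it was at 1053 and 676 CPM.

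XLOC_021161, on scaffold_7 from 117307224 to 117313431, plus strand, took a like course. The 2 families held 488 and 443 CPM at stage 6, then 401 and 284 CPM at stage 8, 12.5 and 5.20 CPM at stage 11 and 1.12 and 1.19 CPM at stage 15, with no count at stage 28. It was at least 944-fold lower at tailbud than the early mean, with 344 and 525 CPM in the repeats of the adult female. Both of these fallen features were abundant in the whole body of the female and undetected in the tailbud embryo at this depth.

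Among features with at least 10 counts in every one of the 6 libraries, changes could be measured at both ends. XLOC_012557, on scaffold_4 from 20413517 to 20435374, plus strand, had the largest rise. It held 6.43 and 5.31 CPM at stage 6, 5.43 and 18.0 CPM at stage 8, and 8178 and 3746 CPM at stage 28. The log2 change was 9.51 (SE 0.57, adjusted p = 6.93e-08). It was still at 10.5 and 16.2 CPM at stage 11 and had reached 746 and 563 CPM at stage 15. In the repeats of the adult female it was at 2854 and 2028 CPM.

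XLOC_026880, on scaffold_9 from 21826721 to 21926793, minus strand, rose next in size. It held 7.66 and 12.8 CPM at stage 6, 7.35 and 7.65 CPM at stage 8, and 1659 and 2038 CPM at stage 28 (log2 change 7.67, SE 0.30, adjusted p = 4.07e-09). At stage 11 the families were apart, at 31.1 and 255 CPM. In RNA-seq it had 3, 13, 4 and 4 reads in the libraries of stages 6 and 8, and 13.6 CPM at stage 11. The early RNA-seq mean of 0.0514 CPM was far below the early WTTS level, on which the log2 change rests. A feature on the other strand overlaps it, and their reads can be separated only where counting used strand, on which the sources used here are silent.

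The largest fall of this kind was that of XLOC_013996, on scaffold_4 from 46551845 to 46613603, minus strand. Its 4 early libraries held 3371 and 3413 CPM at stage 6 and 2824 and 3206 CPM at stage 8, and the tailbud libraries 8.04 and 9.88 CPM (log2 change -8.49, SE 0.45, adjusted p = 2.40e-08). The families were close at every stage, also at stage 11 with 249 and 178 CPM and at stage 15 with 28.6 and 33.3 CPM.

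XLOC_006665, on scaffold_2 from 102185068 to 102191765, plus strand, fell almost as far. It held 2205 and 1504 CPM at stage 6, 1893 and 1149 CPM at stage 8, and 5.36 and 4.35 CPM at stage 28 (log2 change -8.43, SE 0.44, adjusted p = 2.23e-08). In the RNA-seq libraries it went from 2724 CPM at stages 6 and 8, the highest mean of any tested feature there, to 88.1 CPM at stage 11.

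**Figure D3:**
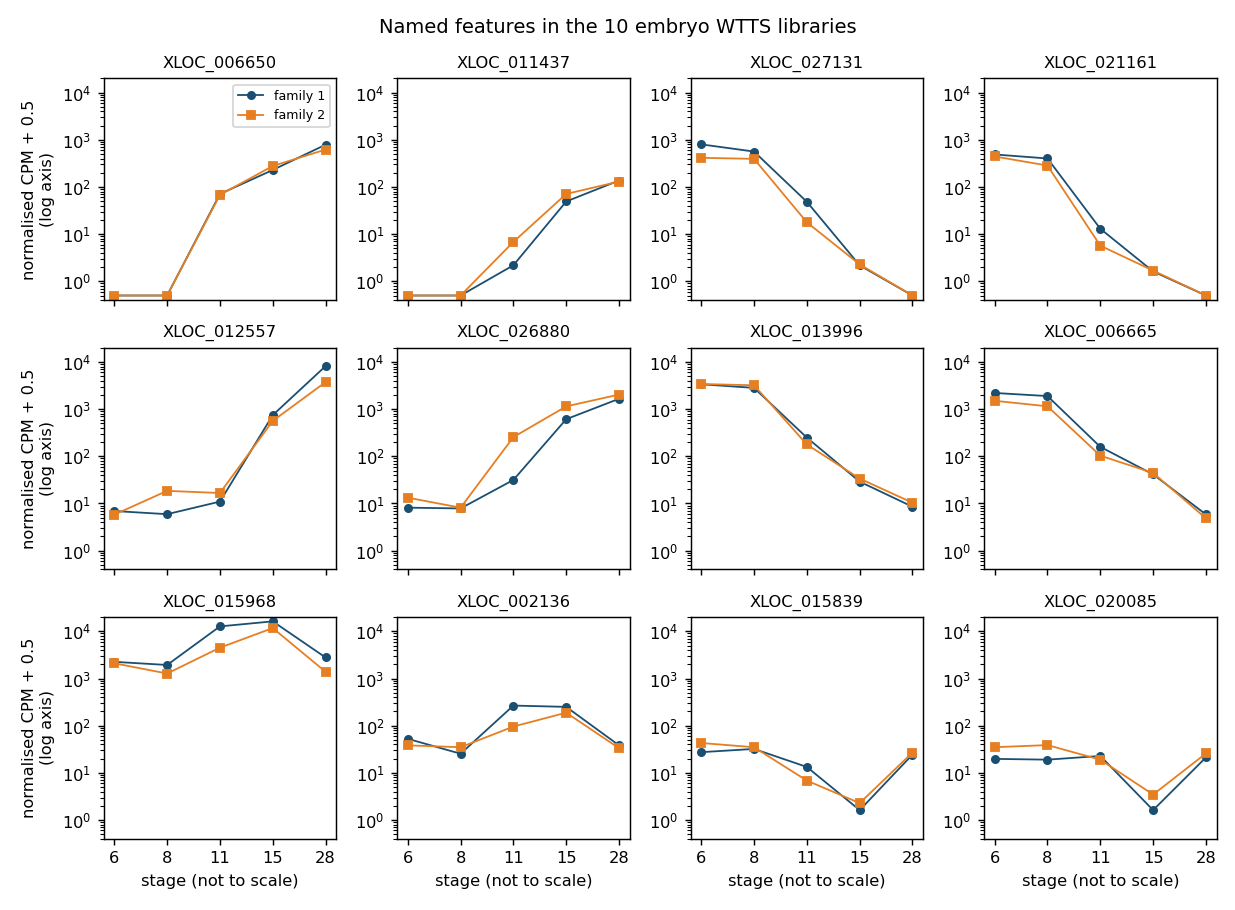
Each panel gives the normalised CPM + 0.5 (log axis) of one named feature over the 5 stages, with one line for each family and one point for each library. The top row shows features at 0 counts at one end, the middle row features measured at both ends, and the bottom row features that ended where they began after a rise or a dip.

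By absolute level, the largest gain was in XLOC_016359, on scaffold_5 from 8636690 to 8661332, minus strand. It held 3370 and 15248 CPM at stage 6, 19442 and 7094 CPM at stage 8, and 128539 and 29908 CPM at stage 28. Of the raw counts of the tailbud libraries, which are not scaled, it took 9.18% and 2.97%. Both tailbud libraries lay above the 4 early ones, but they were far apart (log2 change 2.59, SE 0.69, adjusted p = 0.00565). Which family was higher differed between stages 6 and 8. Without the tailbud library of family 1 the change was 1.39 with an adjusted p of 0.122, and with stage 6 alone as the early group it was 2.99 with an adjusted p of 0.0847. It had been higher still at stage 15, at 287502 and 227315 CPM, after 254059 and 31951 CPM at stage 11. In RNA-seq the families were close, with 87094 and 83016 reads at stage 6 and 117880 and 113916 at stage 8. At stage 11 they had 380537 and 402786 reads. Mean RNA-seq levels were 826 CPM at stages 6 and 8 and 3394 CPM at stage 11, far below those of WTTS. XLOC_004493, on scaffold_10 from 32831647 to 32878798, minus strand, gained next most, from 430 to 776 CPM in the 4 early libraries to 28740 and 17172 CPM at tailbud (log2 change 5.19, SE 0.34, adjusted p = 1.21e-07).

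The 2 largest losses in absolute level were calls near the threshold that many alternatives did not keep. XLOC_023925, on scaffold_8 from 106807410 to 106826726, plus strand, held 9222 and 10003 CPM at stage 6, 14359 and 4036 CPM at stage 8, and 7922 and 1888 CPM at tailbud. Family 1 at tailbud lay within the early range (log2 change -1.18, SE 0.48, adjusted p = 0.0478). The call was lost in 8 of 16 alternatives, with no replicate block among them (-0.94, adjusted p = 0.197). It was -0.78 without stage 6 of family 2 (adjusted p = 0.0821), -1.21 without stage 8 of family 1 (adjusted p = 0.0980) and -0.63 without stage 28 of family 2 (adjusted p = 0.343). Another feature overlaps it on the opposite strand. XLOC_009072, on scaffold_26 from 691409 to 699887, minus strand, held 14786 CPM at stage 6 in family 1 but 345 CPM in family 2, 650 and 128 CPM at stage 8, and 838 and 80.6 CPM at tailbud. The log2 change of -2.32 (SE 0.95, adjusted p = 0.0486) became -0.69 with an adjusted p of 0.270 without stage 6 of family 1. The call was also lost without stage 6 of family 2 (-2.08, adjusted p = 0.105) and without stage 28 of family 1 (-1.59, adjusted p = 0.257), and in 10 of 16 alternatives in all. With stage 8 alone as the early group the change was -0.11 (adjusted p = 0.769). The 2 technical repeats of 1 adult female held 1766 and 58.6 CPM, so this feature also differed between libraries of the same RNA source.

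Features that ended where they began were those whose 95% interval of the log2 change lay wholly between -1 and 1, which is within 2-fold either way. There were 1473 of them, or 10.7% of the features tested. One of these was called as well, and 3302 features, 24.1%, were neither called nor placed within 2-fold, so nothing can be said of their net change. The 1473 were well expressed at both ends, with medians of 49.2 CPM early and 48.5 CPM at tailbud. All had at least 1 CPM in the adult female, as did 90.4% of all tested features. A narrow interval needs many counts, so the rule itself favours well expressed features. It placed 34 of 4279 features at 1 to 10 CPM early. Under 1 CPM early it placed 0 of 1064, but these had passed the filter on low counts through tailbud and all rose. That 0 therefore says nothing of interval width. The number of features that ended where they began was 538 without stage 28 of family 1 and 630 without stage 28 of family 2. It was 711 with stage 6 alone as the early group and 1339 with stage 8 alone.

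A level equal at both ends did not always mean a flat course. Fitted over the 10 embryo libraries, 162 of the 1473 were above their early mean at stage 11 or 15 by a log2 of more than 1, and 267 were below it by as much, 1 of them in each direction at different stages. At stage 11, 110 (7.47%) were above and 151 (10.3%) below, against 16.3% and 14.8% of all features of that fit. At stage 15, 112 (7.60%) were above and 187 (12.7%) below, against 25% and 23.9%. Changes of this size were a smaller share of these features than of all features, at both stages and in both directions. The shares of all features include those that went on to rise or fall to tailbud. The rule for the 1473 leaves such features out, which favours a smaller share, so the difference was not tested. No change was called at either stage for 758 of the 1473, or 51.5%. These contrasts share the early libraries with the comparison of the ends. Leaving out a library of stage 28 gave 69 above and 86 below (family 1) or 67 above and 123 below (family 2). Leaving out stage 6 of family 1 gave 99 above, and leaving out stage 8 of family 1 gave 174 below.

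The RNA-seq libraries, which had no part in choosing these features, covered the first step. Between stages 6 and 8 and stage 11, RNA-seq CPM moved by a median log2 of 0.69 for the features above in between, of -1.06 for those below and of -0.07 for those with no change called, on the log2 scale of CPM + 0.5. At least 1 on that scale upward were 50 of the 162, and downward 142 of the 267, against 18.3% up and 23.9% down of all tested features. For 51 of the 162 and 116 of the 267 the excursion in WTTS was at stage 15 with none at stage 11. The 50 and 142 are therefore not rates of agreement between the methods. The RNA-seq libraries come from embryos of the same families and stages and reach only to stage 11, and no test was made on these values.

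**Figure D4:**
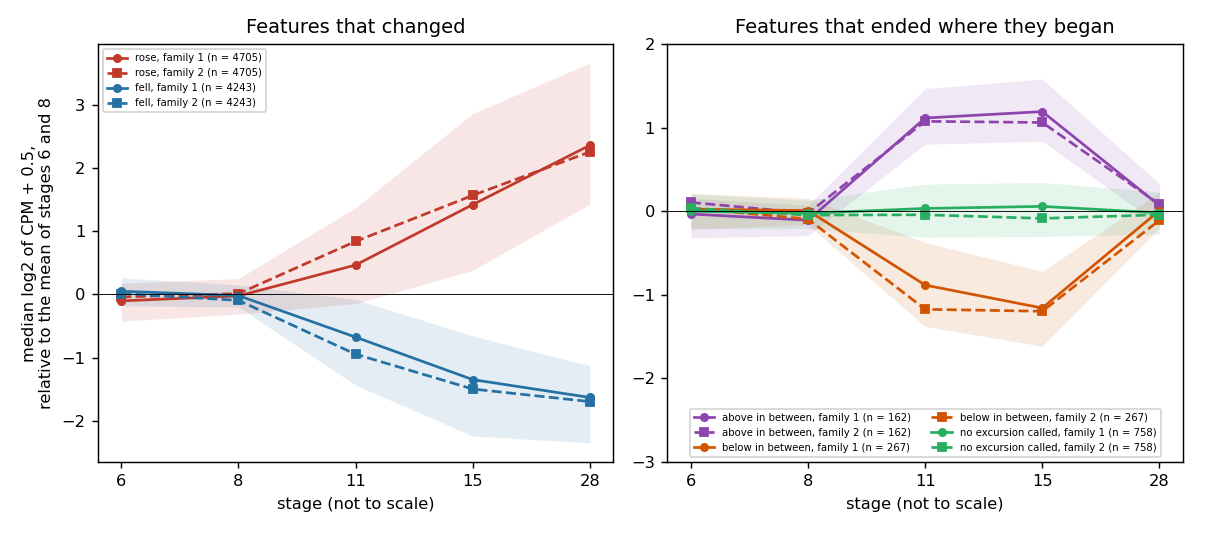
Lines give, for each of the 2 families, the median over a class of features of the log2 of CPM + 0.5 relative to the mean of stages 6 and 8, and the bands are the interquartile range over features in family 1. Rising and falling features (left) depart step by step from stage 11 on, while the classes above and below in between (right) leave the early level at stages 11 and 15 and are back near 0 at stage 28. The classes on the right were chosen by such departures and returns in the same libraries, so their lines only describe them.

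Among features with at least 10 counts in every one of the 6 libraries, XLOC_015968 had the largest excursion above. It lies on scaffold_5 from 79662113 to 79676144, plus strand. It held 2257 and 2100 CPM at stage 6 and 1935 and 1275 CPM at stage 8. It then held 12727 and 4502 CPM at stage 11, 16281 and 11733 CPM at stage 15, and 2790 and 1388 CPM at stage 28. Both families peaked at the neurula, and the tailbud values lay on either side of the early mean. The net log2 change was 0.08, with an interval from -0.61 to 0.77, while stage 15 was above the early mean by a log2 of 2.87 (adjusted p = 3.55e-06). RNA-seq went from 707 CPM to 3169 CPM at stage 11.

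XLOC_002136, on scaffold_1 from 46154753 to 46174084, minus strand, had a similar course at a lower level. It held 52.2 and 37.8 CPM at stage 6, 24.9 and 34.4 CPM at stage 8, 266 and 95.3 CPM at stage 11, 250 and 188 CPM at stage 15 and 37.7 and 32.8 CPM at stage 28. Its net change was -0.09 with an interval from -0.75 to 0.58, and the change to stage 15 was 2.55 (adjusted p = 1.40e-05). RNA-seq went the other way, from 84.7 CPM at stages 6 and 8 to 56.8 CPM at stage 11. This feature overlaps another on the other strand.

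Below in between, XLOC_015839, on scaffold_5 from 61524706 to 61541261, plus strand, dipped deepest among features with at least 10 counts in every one of the 6 libraries. It held 26.9 and 42.4 CPM at stage 6, 31.6 and 34.4 CPM at stage 8, 12.8 and 6.35 CPM at stage 11, 1.12 and 1.78 CPM at stage 15, where the libraries had 2 and 3 counts, and 23.9 and 26.5 CPM at stage 28. Both tailbud values were under all 4 early ones, and the net change of -0.42 had an interval from -0.99 to 0.16, just inside the band. The change to stage 15 was -4.53 (adjusted p = 1.43e-05). In RNA-seq it fell from 51.4 to 18.5 CPM by stage 11.

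XLOC_020085, on scaffold_7 from 222113 to 227014, plus strand, dipped at the neurula in WTTS. It held 18.5 to 38.3 CPM in the 4 early libraries, 22.3 and 18.5 CPM at stage 11, 1.12 and 2.97 CPM at stage 15 and 20.8 and 25.3 CPM at stage 28. The change to stage 15 was -3.73 (adjusted p = 4.12e-05), that to stage 11 -0.34 (adjusted p = 0.473), and the net change -0.18 with an interval from -0.79 to 0.43. RNA-seq was lower at the gastrula already, at 4.37 CPM against 10.7 CPM at stages 6 and 8. Another feature overlaps it on the opposite strand.

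With no change called at either stage, XLOC_026941, on scaffold_9 from 29278302 to 29291962, minus strand, was the most abundant. It held 1304 to 1914 CPM in the 4 early libraries, 1886 to 2228 CPM at stages 11 and 15, and 1640 and 2115 CPM at tailbud, a net log2 change of 0.27 with an interval from -0.36 to 0.91. XLOC_020792, on scaffold_7 from 76813685 to 76873188, plus strand, held 978 to 1219 CPM early and 1307 and 1626 CPM at tailbud. In between it held 1086 and 1242 CPM at stage 11 and 1581 and 1534 CPM at stage 15. The change to stage 15 was 0.51 (adjusted p = 0.0669), and both values there were above all early ones. The interval of its net change ran from -0.14 to 1.00, and its early and tailbud values did not overlap.

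Changes were spread over all steps between the ends. Of 4286 features that rose by a log2 of at least 1, 1512 (35.3%) had passed the midpoint between their early and tailbud levels, on the log2 scale of CPM + 0.5, by stage 11. Another 1357 (31.7%) first did so at stage 15, and 1417 (33.1%) only at stage 28. Of 3566 features that fell by as much, 1630 (45.7%) were past the midpoint at stage 11, 1172 (32.9%) first at stage 15 and 764 (21.4%) only at stage 28. In 431 of the rising features the mean at stage 11 or 15 was above the tailbud mean by a log2 of more than 1, and in 320 of the falling features it was below it by as much.

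RNA-seq at stages 6 and 8 gave early levels of the classes in libraries that had no part in the calls. The median was 1.88 CPM for rising features, 77.4 CPM for falling features and 72.7 CPM for those that ended where they began. At least 1 CPM was reached by 56.5% of rising features and 97.1% of falling features, against 79.6% of all tested. Rising features include the 1064 under 1 CPM in early WTTS, chosen through tailbud counts, so a low early level was built into the class and these values only describe it. RNA-seq values are not divided by transcript length.

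In the adult female, given as the mean CPM of 2 technical repeats of 1 animal, falling features had a median of 44.1 CPM and rising features of 5.51 CPM, against 17.8 CPM for all tested features. At least 1 CPM was reached by 98.2% of falling and 80.8% of rising features. The RNA-seq library of the mixed adult pool had medians of 51.1 and 10.2 CPM. Falling features were thus higher in these adults than rising features, a description of 1 female and 1 pool. Features that ended where they began had medians of 46.6 CPM in the female and 57.7 CPM in the pool. A high adult level was thus not particular to falling features.

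Span on the scaffold, which includes introns, went with direction. Of 1383 tested features spanning over 100 kb, 44.3% rose and 10.8% fell, with a median log2 change of 0.66. Of 5009 spanning 10 to 30 kb, 29.1% rose and 38.3% fell, with a median of -0.36. In the other classes of span, 35.7 to 37.3% rose and 27.4 to 32.9% fell. Early levels differed by span too, with medians of 13.2 CPM over 100 kb and 23.3 CPM at 10 to 30 kb. The lowest early median was 7.80 CPM, under 3 kb, where 37.3% rose and 31.4% fell. The part of early levels in the difference was not tested.

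Neighbours on a scaffold changed together about as often as any features. Where a feature rose, the next tested feature rose in 35.4% of 4456 cases, against 34.3% of all tested features, and where one fell the next fell in 33.0% of 4078, against 30.9%. The 10 large scaffolds had 30.7 to 39.1% rising and 27.8 to 34.4% falling features. Some runs stood out in size and were chosen after their values were seen. On scaffold_9, from 59467542 to 59882106, 8 tested features in a row on the minus strand rose, by log2 values from 1.23 to 12.04 with a median of 8.79, and together went from 24.4 to 1789 CPM. The largest run of falling features held 9, on scaffold_3 from 115056339 to 115514572, with a median of -1.24 and a sum of 682 CPM early and 291 CPM at tailbud. Whether features of a run are copies that share reads is not given in the table.

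Overlapping features on opposite strands, 983 pairs with both members tested, rose together in 73 pairs (7.43%), fell together in 119 (12.1%) and were called in opposite directions in 171 (17.4%). In 467 pairs 1 member was called and in 153 neither. Of all tested features taken singly, 34.3% rose and 30.9% fell, which are not shares of pairs and cannot be set against them directly. Whether pairs differ from other features was not tested. Features with such an overlap were 22.6% of those tested, 21.0% of the rising and 22.1% of the falling features.

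The change in one family went with the change in the other. Across the 13722 features the changes of family 1 and family 2, each from its own libraries, had a Spearman correlation of 0.909 and a Pearson correlation of 0.930. Features do not count as replicates, and these values have no test. The edgeR interaction test of family with the change passed at 14 features (0.102%, adjusted p below 0.05), with 826 at an unadjusted p below 0.05, or 6.02%. Each family has 1 tailbud library, so the test assumes that tailbud libraries vary like the early ones, and a family and its single tailbud library cannot be told apart. The change was less positive in family 2 for 13 of the 14, and in 10 of these the tailbud library of family 1 was the highest of the 6. The number of such features was 47 and 74 without stage 6 of families 1 and 2, and 31 and 8 without stage 8 of families 1 and 2.

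**Figure D5:**
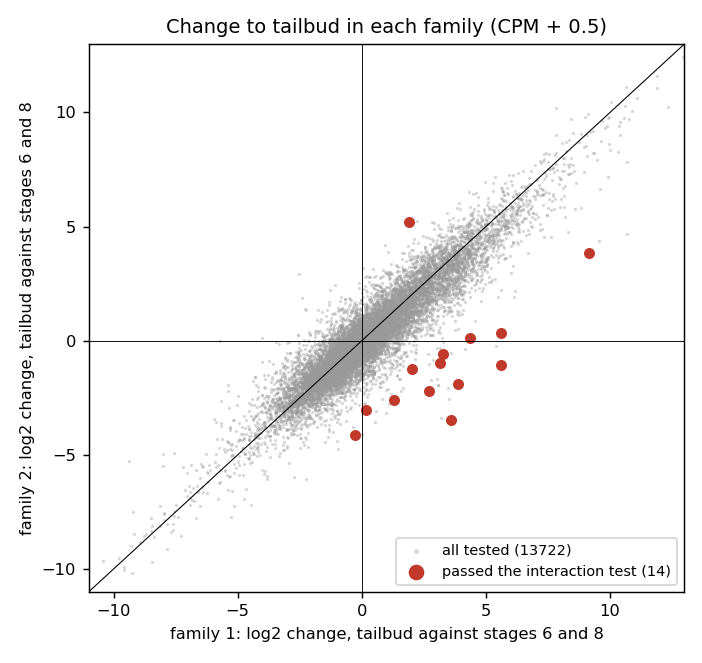
Each grey point is a tested feature, with its log2 change of CPM + 0.5 from stages 6 and 8 to tailbud in family 1 on the x axis and in family 2 on the y axis, and the line marks equal changes. The 14 features that passed the interaction test are in red; 13 lie below the line and 1 above it.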

How the data were processed

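The authors deposited one table of raw counts per feature, whole numbers that were not normalized, for 26 libraries; per the labels' protocols, RNA was extracted with Trizol and libraries followed Illumina and Ion Torrent protocols. For which library each protocol served, and for aligner, counting program, genome build and strand, the sources used here give nothing. Samples were grouped by title.

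The test was that of edgeR 4.0.16 (R 4.3.3): TMM scaling, filterByExpr, the quasi-likelihood F-test with family as a block, and Benjamini-Hochberg adjustment over all 13722 features tested, with a call at an adjusted p below 0.05. SE is the absolute log2 change over the square root of F, and 95% intervals use the t quantile. Excursions at stages 11 and 15 came from a fit of the 10 embryo WTTS libraries with stage and family. The scripts were tested on simulated data. Normalised CPM are counts per TMM-scaled library size, with stages 11 and 15 put on the scale of the other 6 libraries; RNA-seq and adult CPM are unscaled. With family as a block, a constant difference between the 2 families is taken out of the spread that p-values measure. The remaining spread includes that between the early stages within a family and any difference between the families in the change. Zero counts were given a floor of 3 counts, which covers counting error only. Other steps used Python 3.11.15 with pandas 2.3.3, numpy 2.4.6 and scipy 1.17.1.

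Family pairs the samples by the labels. Differences between the families correlated across 10148 features by 0.269 between stages 6 and 8, 0.107 between stages 6 and 28 and 0.326 between stages 8 and 28. No 2 libraries agreed within sampling noise (chi-square per degree of freedom at least 16.2).

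Alternatives were DESeq2 size factors, no filter, limma-voom (limma 3.58.1), DESeq2 1.42.0, a test against a log2 change of 1, no block, stage 6 or 8 alone, all 10 libraries, and leaving out each library. Thinning to 1536128 counts, and alternatives for the excursions and for leaving out early libraries in the family test, were added after seeing the data. Features were named, up to 2 per direction, in 5 classes. Those at 0 counts at one end were ranked by highest level. Those with at least 10 counts in each of the 6 libraries were ranked by largest change. Those that ended where they began, with the same minimum of 10 counts and a called excursion, were ranked by largest excursion. Called features were also ranked by largest difference in CPM. Those that ended where they began without a called excursion were ranked by highest level. The comparison, the classes and the rules were chosen with earlier results of these data known.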

Additional observations from a re-analysis of the deposited data

Results flagged for a closer look

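Among the 4 early libraries, 1 value stood far from the other 3 in 4 of 24 sets examined. The cut flags about 1 in 20 sets of 4 random values. These sets were mostly features named by their level or change, and the library measures depend on one another, so that rate does not apply. XLOC_012557 was at 18.0 CPM at stage 8 of family 2, against 5.31 to 6.43 CPM in the others. XLOC_026880 was at 12.8 CPM at stage 6 of family 2, against 7.35 to 7.66 CPM. XLOC_009072 was at 14786 CPM at stage 6 of family 1, against 128 to 650 CPM, while the RNA-seq library of that stage and family held 7052 reads on the feature, against 9689, 6744 and 8678 in the other 3 of stages 6 and 8. The share of counts in falling features was 56.5% at stage 6 of family 1, against 52.0 to 52.2% in the other early libraries.

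The edgeR interaction test of family with the change to tailbud passed at 14 features. Each family has 1 tailbud library, which the test assumes to vary like the early ones. A difference of families at tailbud and one of 2 tailbud libraries thus cannot be told apart. At XLOC_019189 and XLOC_020097, below, the families also differed in both of their early libraries, and that part does not rest on tailbud. The feature with the lowest unadjusted p and the only one in the other direction were chosen after their values were seen. The largest difference of the 14 was at XLOC_019189, where the log2 change of family 2 minus that of family 1 was -7.26. It held 4.70 and 10.9 CPM early in family 1 and 140 and 61.8 CPM in family 2, and 99.8 and 8.70 CPM at tailbud. It lies on scaffold_6 from 82763959 to 82849743, minus strand, and overlaps another feature on the opposite strand. XLOC_012002, on scaffold_392 from 10219 to 25005, plus strand, held 4.45 and 5.11 CPM early and 3027 CPM at tailbud in family 1, and 7.02 and 9.29 CPM early and 123 CPM at tailbud in family 2. The log2 change of family 2 minus that of family 1 was -5.34 (SE 0.59, adjusted p = 0.00303). XLOC_020097, on scaffold_7 from 1414309 to 1447977, plus strand, held 57.8 and 47.3 CPM early in family 1 and 4.53 and 4.37 CPM in family 2, and 199.8 and 184 CPM at tailbud, a difference of 3.43 (SE 0.51, adjusted p = 0.0224).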

How the results depend on the processing

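The number of rising features lay between 3403 and 5245 in all alternatives run, and that of falling features, except with a log2 change of at least 1 (2393), between 3365 and 4961. Leaving out 1 library gave 3744 to 4547 rising and 3365 to 4259 falling features, 3501 and 3158 of them shared with the full set when stage 28 of family 1 was left out. With no replicate block, 4542 features rose and 3972 fell, so pairing by family changed neither number by 1.5 times. Features that ended where they began were fewer with stage 6 alone as the early group (711; 1339 with stage 8 alone) and with a band of 1.5-fold (93), and between 538 and 1437 with 1 library left out. Those above in between were 67 to 180 and those below 86 to 257 with 1 library left out. Features that passed the interaction test of the families were 128 with no filter on low counts and 8 to 74 with an early library left out. Of 12 named features that were called, 9 kept their call in all 16 alternatives, and the exceptions are XLOC_016359, XLOC_023925 and XLOC_009072; none changed direction. Each named feature that ended where it began left the band without stage 28 of family 1 and with stage 6 alone as the early group; of 13 alternatives, XLOC_015839 left it in 11, XLOC_020792 in 10, XLOC_026941 in 6, XLOC_015968 and XLOC_020085 in 4 each and XLOC_002136 in 3. Depth limits what 0 counts can show: 3 counts in a single early or tailbud library are 0.468 to 1.64 CPM.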
